A study of Homo sapiens with 54 samples.

Results

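*TRA2A* knockout (KO) was compared with control knockout in LN319 cells that overexpressed its paralog *TRA2B* (TRA2B-OE), a comparison that asks what the loss of one TRA2 paralog changes when the other is in excess. LN319 was described by the study as a glioma line whose growth depends on *TRA2A*. The members are all genes with at least 1 TPM (a level scaled to transcript length and to the library's total) in at least 4 of the 15 LN319 libraries, which left 19303 of 55906 gene rows. The series holds 54 RNA-seq libraries, and 6 of them make up the comparison, 3 of TRA2B-OE *TRA2A* KO and 3 of TRA2B-OE Control KO.

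Both groups carried a lentiviral *TRA2B* cDNA, amplified from the lung cancer line NCI-H23. They then received a lentiviral vector with Cas9 and guide RNAs, against *TRA2A* in the KO group and against control loci in the control group, and were collected a week later. The companion groups, Luc Control KO and Luc *TRA2A* KO (3 libraries each), carried luciferase in place of *TRA2B* and received the same kinds of guides. The study describes no cloning step between this transduction and collection. Whether the replicates were separate cultures is not stated in the sources used here, so p-values measure the spread between these libraries, which may be technical. *TRA2B* values include reads of the introduced cDNA, which cannot be told apart from the endogenous mRNA in a value per gene.

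TRA2A and TRA2B are closely related serine/arginine-rich (SR) proteins that bind exons and promote their splicing into mRNA. Both genes contain a poison exon, an exon whose inclusion makes the transcript a target of nonsense-mediated decay, and TRA2 proteins promote its inclusion in their own and in each other's transcripts. A cell with less of one paralog can therefore make more of the other.

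The guides used by the study to knock out *TRA2A* are shown with the sites that they match. Each is written 5′ to 3′ in lower case, with the PAM that Cas9 reads in the genome in capitals. The sources used here do not say which of them was used in the RNA-seq libraries.

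*TRA2A* sg4: tcagtttgtacacaacagagAGG

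*TRA2A* sg5: tctcgatatggaccattgagTGG

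*TRA2A* sg6: tggtttatgatcagcgaactGGG

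ROSA26 sg1 (control locus): gagtcgcttctcgattatgggCGG

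In hg38, with Gencode v44 models, the targets of sg4 (chr7:23513023-23513042), sg5 (chr7:23512982-23513001) and sg6 (chr7:23512951-23512970) all lay on the minus strand in coding exon 4 of 8 of *TRA2A*. The ROSA26 guide matched the minus strand at chr3:9396264-9396284, in exon 1 of the non-coding RNA gene *THUMPD3-AS1*. Each guide shown had 1 exact site followed by a PAM. Against 15 annotated *TRA2B* transcripts the closest site had 9 mismatches for sg4, 8 for sg5 and 6 for sg6, so none of the *TRA2A* guides matched the introduced *TRA2B* sequence.

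The 15 libraries summed to between 959783 and 964610 TPM, the share of mitochondrially encoded genes was 12.5% to 15.1% of TPM within the 6 libraries compared, and 0 libraries were identical to another. Sequencing depth cannot be read from TPM, and the TPM of many named genes is therefore given by library, as a range or with its SD. Other genes are given by log2 fold change or group mean only. Of the markers of glial and mesenchymal cells, vimentin (*VIM*, 3015 to 3454 TPM in the 6 libraries), *SOX2* (316 to 363 TPM) and *CD44* (1913 to 2073 TPM) were high. The astrocyte gene *GFAP* was at 0.977 to 3.13 TPM and the oligodendrocyte-lineage gene *OLIG2* at 0 to 0.0741 TPM. The epithelial genes *CDH1* (128 to 150.1 TPM) and *KRT8* (109.9 to 128 TPM) were also present, while *EPCAM* stayed at 0.116 to 0.547 TPM. Blood-cell markers were mixed. The leukocyte gene *PTPRC* stayed at 0.138 to 0.261 TPM, while *CD68* was at 19.7 TPM or more and the hemoglobin gene *HBB* at 1.65 to 20.2 TPM. Neuronal markers were mixed too, with *TUBB3* at 93.6 to 127.7 TPM, *ENO2* at 60.8 to 84.8 TPM and *SYT1* at 0.00886 to 0.0463 TPM.

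*TRA2A* mRNA fell after *TRA2A* KO but did not disappear. It was at 93.7, 91.4 and 88.2 TPM in the 3 TRA2B-OE Control KO libraries and at 50.7, 51.3 and 42.4 TPM in the 3 TRA2B-OE *TRA2A* KO libraries. All KO libraries lay below all control libraries, and the KO mean was 52.8% of the control mean. The log2 fold change was -0.87 (standard error 0.0809, adjusted p = 9.10e-04 by limma with Benjamini-Hochberg adjustment over all genes), and *TRA2A* ranked 2 of 19303 by p, after *CNR1*. A smaller share of edited cells and less mRNA per cell cannot be told apart in bulk RNA, and an edited transcript that escapes decay is still counted.

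The remaining level was higher than in cells without extra *TRA2B*. In Luc cells *TRA2A* went from 107 ± 5.65 TPM to 35.5 ± 2.44 TPM (mean ± SD, n = 3 each), 33.2% of control. The log2 fold changes of -0.87 and -1.55 differed by 0.68 (standard error 0.114), with an adjusted p of 0.117 for the difference (limma), so the smaller fall with TRA2B-OE did not pass the test across all genes.

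*TRA2B* mRNA, already high from the introduced cDNA, rose further. It was at 777, 839.6 and 678 TPM in TRA2B-OE Control KO and at 989, 964 and 971 TPM in TRA2B-OE *TRA2A* KO, with no overlap and with the 3 KO libraries closer together (SD 12.7 TPM) than the 3 controls (SD 81.5 TPM). The log2 fold change was 0.41 (standard error 0.0933, adjusted p = 0.0372, limma), a fold of 1.33. The call is not firm: the adjusted p was 0.165 with quantile normalization, and it ranged from 0.0331 to 0.136 as each of the 6 libraries was left out. In Luc cells the corresponding values were 87.6 ± 3.59 and 104 ± 10.3 TPM (n = 3 each, log2 fold change 0.28, adjusted p = 0.0632), and the test of the difference between both backgrounds gave 0.13 (adjusted p = 0.854, limma).

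For both genes an exact two-sided permutation test over 3 against 3 libraries gave p = 0.1, the smallest p this design allows. The summed TPM of both paralogs lay between 1013 and 1039.5 in TRA2B-OE *TRA2A* KO and between 766 and 931 in TRA2B-OE Control KO. In Luc cells the sums were far lower, from 190.1 to 202 TPM with control guides and from 131 to 154 TPM with *TRA2A* guides.

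**Figure D1:**
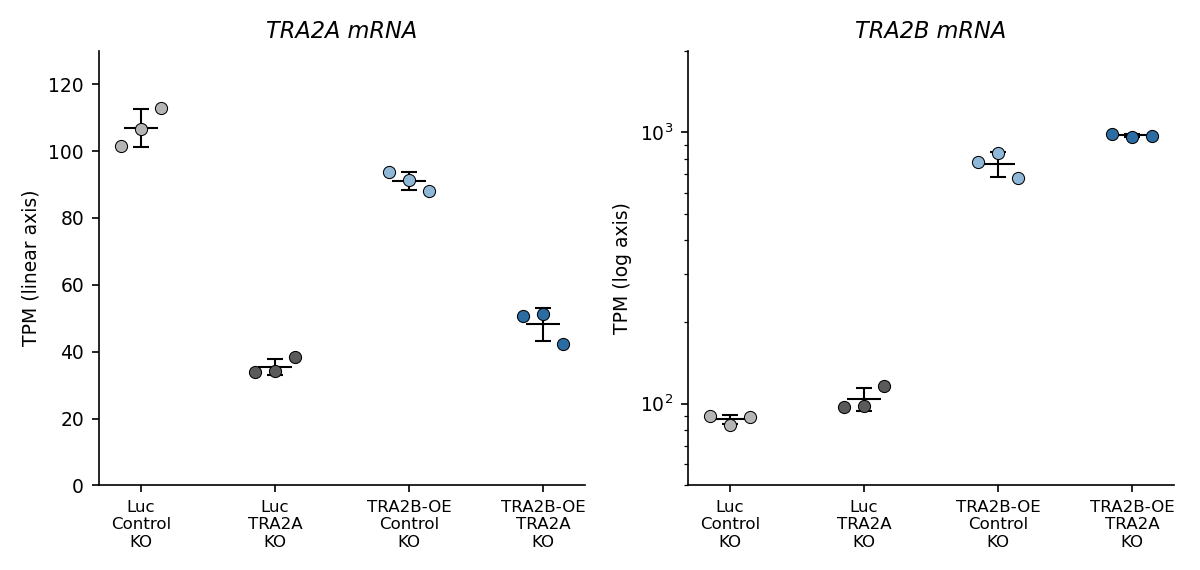
*TRA2A* (left, linear TPM axis) and *TRA2B* (right, logarithmic TPM axis) in the 4 LN319 groups; each point is a library, and bars give mean ± SD of 3. *TRA2A* falls with *TRA2A* guides in both backgrounds, to 35.5 TPM in Luc and 48.1 TPM in TRA2B-OE, while *TRA2B* stands at 765 and 975 TPM in the TRA2B-OE groups against 87.6 and 104 TPM in the Luc groups.

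Across the transcriptome, 534 of 19303 genes (2.77%) passed an adjusted p of 0.05 in limma and are referred to as called. Of these, 285 rose (1.48% of genes tested) and 249 fell (1.29%). With an absolute log2 fold change above 1 in addition, the rule for differentially expressed genes (DEGs), 45 genes (0.233%) remained, 26 higher (0.135%) and 19 lower (0.0984%). The typical call was small, with a median absolute log2 fold change of 0.44 and a median over all genes of 0.02. Protein-coding genes made up 236 of the 285 calls upward and 214 of the 249 downward, beside 12665 protein-coding genes not called. Long non-coding RNAs made up 26 and 8, beside 796 not called. Genes with no match in the annotation made up 18 and 19, beside 3497 not called.

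The number of calls depended on single libraries. It fell to 60 without TRA2B-OE *TRA2A* KO replicate 1 and to 76 without TRA2B-OE Control KO replicate 3. Without TRA2B-OE *TRA2A* KO replicate 2 it was 114, and without TRA2B-OE Control KO replicate 1 it was 253. All 534 genes kept their sign as each library was left out, which their selection on these same libraries largely fixed. The number of DEGs fell to 9 without TRA2B-OE Control KO replicate 3, to 11 without TRA2B-OE *TRA2A* KO replicate 1 and to 15 without its replicate 2. When only the 6 libraries entered the limma fit, 0 genes were called and 2778 had an unadjusted p under 0.05, against 3465 (18%) in the fit of all 15 libraries. On TPM as deposited, without the scaling between libraries, the split was 177 higher and 446 lower.

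**Figure D2:**
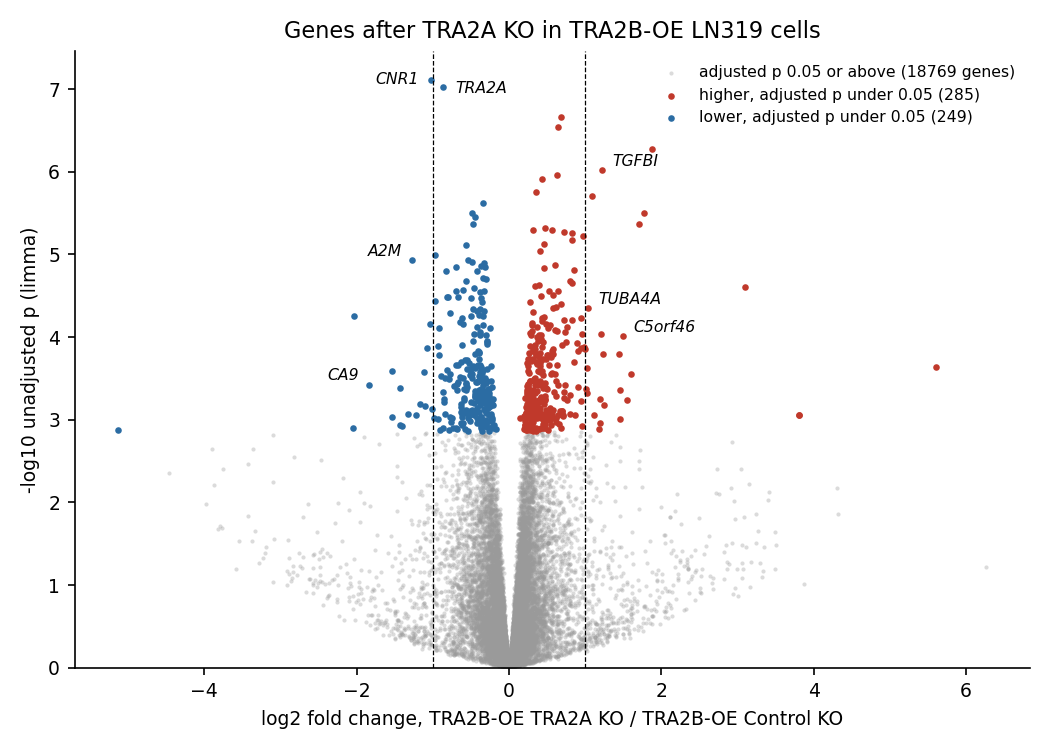
Each point is 1 of 19303 genes in TRA2B-OE cells, with its log2 fold change (*TRA2A* KO over Control KO) on the x axis and -log10 of the unadjusted limma p on the y axis; red and blue mark the 285 higher and 249 lower genes at an adjusted p under 0.05, and dashed lines an absolute log2 fold change of 1. *CNR1* and *TRA2A* stand at the top, and most called genes lie between the dashed lines.

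The coding genes that changed most were described by library. These are the 12 in each direction with the largest fold change among called genes with no overlap between the groups and a mean of at least 5 TPM in either, a condition met by 205 higher and 201 lower coding genes. Overlap was judged on TPM as deposited, whereas the fold changes used TPM scaled between libraries. Without overlap alone, 7.38% of all genes tested were higher and 14.4% lower. The deposited scale leaned downward, with a median log2 change of -0.04 for the genes tested, against 0.02 after scaling. These shares are therefore not an even baseline for rises and falls.

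Among those that rose were secreted and matrix-associated proteins. *TGFBI*, a TGF-beta-induced matrix protein, was at 21.9, 24.2 and 16.3 TPM in control and 48.9, 47.9 and 41.7 TPM in KO libraries (log2 fold change 1.22, standard error 0.140, adjusted p = 0.00293, limma). *THBS1*, thrombospondin 1, was at 313, 289 and 176 TPM and then 576, 608 and 503 TPM (1.21, standard error 0.216, adjusted p = 0.0161). *CTGF*, the matricellular growth factor also called CCN2, was at 269, 268 and 198 TPM and then 472, 449 and 499.7 TPM (1.02, standard error 0.220, adjusted p = 0.0309). In each of the 3 genes the lowest KO library exceeded the highest control, and control replicate 3 was the lowest. *EDN1*, which encodes the peptide endothelin 1, rose with a log2 fold change of 1.02, *CPA4*, a secreted carboxypeptidase, with 1.23, and *SERPINB5*, a serpin known as maspin, with 0.97. *CTGF* and *ANKRD1* (0.99), a nuclear ankyrin-repeat protein, are textbook targets of the YAP/TAZ coactivators.

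The largest rise by this rule was that of *C5orf46*, a little-studied gene, at 13.4, 12.7 and 6.99 TPM in control and 27.4, 31.2 and 28.5 TPM in KO libraries (a fold of 2.82, standard error 0.270 on the log2 scale, adjusted p = 0.0164, limma). *CCND1*, which encodes cyclin D1, the G1 cyclin of CDK4 and CDK6, was at 16.3, 17.8 and 6.45 TPM and then 33.3, 31.4 and 21.4 TPM (1.24, adjusted p = 0.0359). The groups of *CCND1* did not overlap, and control replicate 3 was far below both other controls. *FLG*, an epidermal barrier protein, rose by 1.44 and *TUBA4A*, an alpha tubulin, by 1.03 on the log2 scale. *APITD1-CORT* (1.45) is a readthrough of 2 neighbouring genes, so that reads of its parts may have been divided between rows.

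Among the genes that fell, *CNR1*, the cannabinoid receptor CB1, had the smallest p of all. It was at 40.02, 34.9 and 43.9 TPM in control and 20.3, 18.7 and 16.9 TPM in KO libraries (log2 fold change -1.02, standard error 0.0942, adjusted p = 9.10e-04, limma). *A2M*, the protease inhibitor alpha-2-macroglobulin, was at 51.5, 46.5 and 76.9 TPM and then 22.5, 19.9 and 25.9 TPM (-1.27, standard error 0.184, adjusted p = 0.00779). *CA9*, a carbonic anhydrase induced by hypoxia, was at 4.42, 4.55 and 8.53 TPM and then 1.52, 1.10 and 1.73 TPM (-1.83, standard error 0.383, adjusted p = 0.0283). For *A2M* and *CA9* control replicate 3 was the highest of all libraries, and the groups remained apart without it.

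*THBS2*, the thrombospondin related to *THBS1*, moved the other way, from 25.4, 19.7 and 24.9 TPM to 10.7, 9.66 and 13.95 TPM (log2 fold change -0.97, standard error 0.139, adjusted p = 0.00723, limma). *FRZB*, a secreted Wnt antagonist, fell by 1.07 on the log2 scale, *ALDH3A1*, an aldehyde dehydrogenase, by 1.04, and *CHRDL2*, a secreted BMP antagonist, by 0.91. The cell-surface proteins *LSAMP* (-0.97), *IGSF1* (-0.92) and *GFRA1* (-0.89), a GDNF co-receptor, were lower as well, as were *MAGI2* (-1.01), a scaffold protein, and *FIBIN* (-1.10).

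The replicates 3 differed from the others in many of these genes. Control replicate 3 was the control library farthest from the KO libraries in 21 of the 24, and KO replicate 3 was the KO library nearest to the controls in 19. Without control replicate 3, 7 of the 24 remained called, and without KO replicate 1, 5 did. All 24 kept their direction in every such fit, which their choice as genes without overlap largely fixed.

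**Figure D3:**
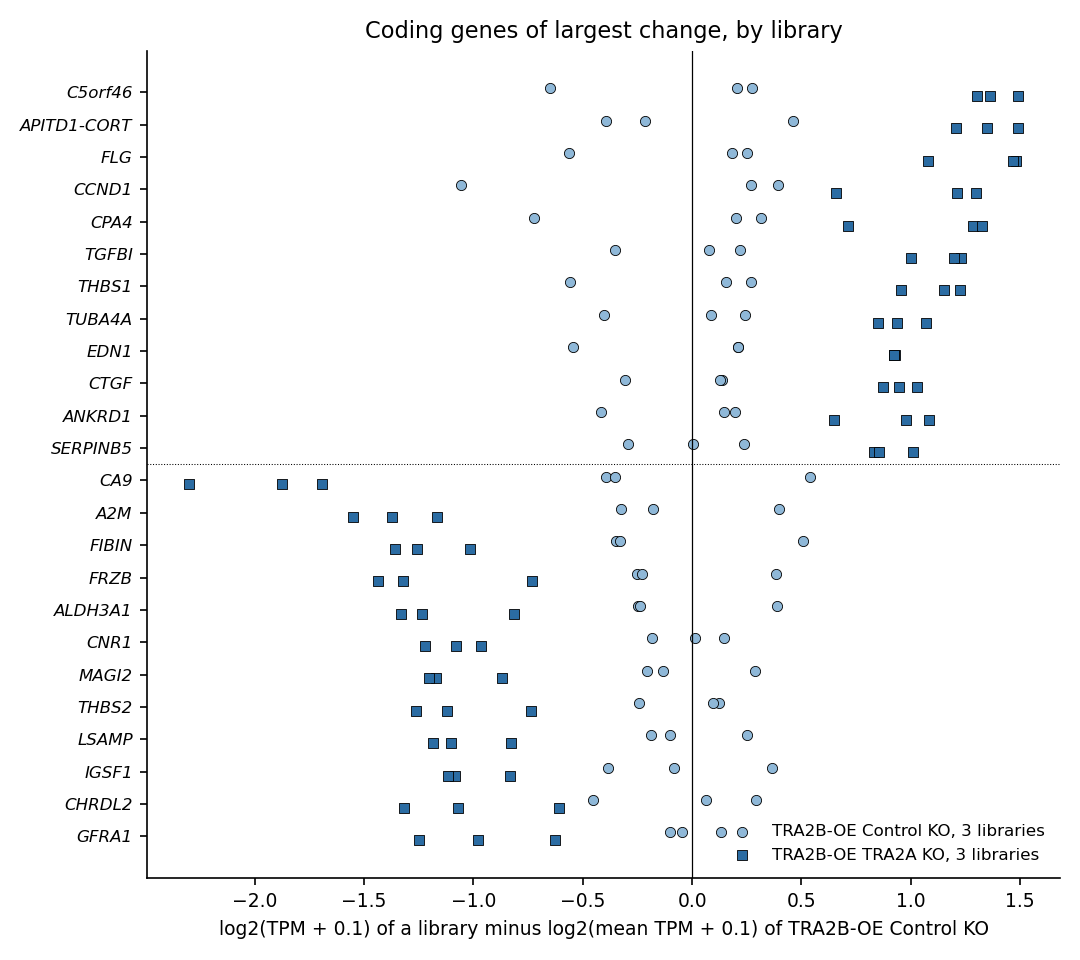
The 12 coding genes of largest rise (above the dotted line) and of largest fall (below it) in TRA2B-OE cells; the x axis gives log2(TPM + 0.1) of each library minus the log2 value of the control mean, circles are the 3 Control KO and squares the 3 *TRA2A* KO libraries. In every row circles and squares do not overlap, which the choice of genes required, and in most rows 1 circle lies apart from the other circles, on the side away from the squares.

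Few non-coding genes with at least 5 TPM changed as much. *SNHG19*, a host gene of small nucleolar RNAs, was at 56.6, 70.6 and 79.3 TPM in control and 84.0, 128 and 118 TPM in KO libraries (log2 fold change 0.73, adjusted p = 0.0331, limma). *LINC00926* rose by 0.75 and *EPB41L4A-AS1* by 0.69 on the log2 scale, and the nuclear long non-coding RNA *MIAT* fell by 0.79. *RN7SL282P* (-2.05) and *ENPP7P8* (-1.40) are pseudogenes of multicopy families, so their values depend on how reads were divided among near-identical copies.

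Gene lists were then examined by role, starting with the splicing machinery, where members are counted as called at an adjusted p under 0.05 and read against the 1.48% of all genes that rose and the 1.29% that fell. Counts at an unadjusted p under 0.05 are read against the 18% of all genes, in either direction. Among the called list members named by smallest p, *TRA2A*, *LUC7L2*, *IER3*, *MYC*, *CSF1*, *ADM*, *TGFBI* and *THBS2* kept their call whichever library was left out, and each of the others lost it without at least 1 library. None of the 12 SR proteins *SRSF1* to *SRSF12* was called by limma, 1 had an unadjusted p under 0.05, and their log2 fold changes lay between -0.15 and 0.15. *SRSF1*, the founding SR protein, was at 299, 299 and 293 TPM in control and 293, 297 and 289 TPM in KO libraries (log2 fold change 0.04, adjusted p = 0.760), a sign that turned to -0.02 on TPM as deposited. *SRSF11* was at 567, 499 and 475 TPM and then 454, 481 and 399.5 TPM (-0.15, adjusted p = 0.201). None of 7 SR protein kinases was called either, with 0 at an unadjusted p under 0.05.

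Of 46 other splicing regulators, 2 rose and 2 fell. *LUC7L2*, a U1 snRNP-associated factor, was at 109.7, 101 and 105 TPM in control and 81.2, 82.1 and 78.7 TPM in KO libraries, with no overlap (log2 fold change -0.33, standard error 0.0476, adjusted p = 0.00779, limma). *TIA1*, which promotes the use of weak 5′ splice sites, was at 179.6, 152 and 144 TPM and then 129, 125 and 105 TPM (-0.35, adjusted p = 0.0432). *KHDRBS3* (0.28, adjusted p = 0.0400), a STAR-family RNA-binding protein, and *U2AF2* (0.20, adjusted p = 0.0480), the large subunit of the factor that recognizes the polypyrimidine tract, were called higher. In both genes, however, the libraries of the groups overlapped on TPM as deposited, before scaling. The *U2AF2* call was lost under all 15 alternatives and the *KHDRBS3* and *TIA1* calls each held under 5.

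The genes whose splicing the study assayed by RT-PCR have centrosomal and checkpoint roles, and 1 of 4 was called lower in level. *OFD1*, a centriole and ciliary protein, was at 38.8, 39.9 and 38.5 TPM in control and 30.3, 33.2 and 29.2 TPM in KO libraries (log2 fold change -0.28, standard error 0.0619, adjusted p = 0.0330, limma). The *OFD1* call was lost in each of the 6 fits without a library, and its adjusted p reached 0.155 over the 15 alternatives. *CEP192*, which recruits pericentriolar material, was at 29.5, 26.3 and 26.9 TPM and then 23.6, 24.7 and 19.5 TPM (-0.23, adjusted p = 0.131). *CNTRL*, centriolin, gave -0.12 (adjusted p = 0.485), and *CHEK1*, the checkpoint kinase, -0.09 (adjusted p = 0.690). Gene levels in TPM do not show exon inclusion, which was not analysed here.

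The cell-cycle lists showed few called members. In the list of 50 centrosome and cilium genes *OFD1* was the only one called, 5 genes were lower and 1 higher at an unadjusted p under 0.05, and the median log2 fold change was 0.00. Of 54 G2/M genes 1 was called, *PSRC1*, a spindle protein and p53 target, at 209.6, 196 and 223 TPM in control and 154, 154 and 151 TPM in KO libraries (-0.39, adjusted p = 0.0206, limma). None of 43 S-phase genes was called, with 3 at an unadjusted p under 0.05. In the DNA damage list of 48 genes *FANCD2*, a protein of the Fanconi pathway that is ubiquitinated, fell, from 74.1, 58.1 and 66.3 TPM to 50.001, 46.9 and 45.6 TPM (-0.41, standard error 0.0724, adjusted p = 0.0153).

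The p53 target list moved both ways. *GADD45A*, a stress sensor, rose from 177, 165 and 146 TPM to 219.6, 215 and 179.7 TPM (log2 fold change 0.39, standard error 0.0696, adjusted p = 0.0161, limma), and *PLK2*, a polo-like kinase, rose by 0.55 on the log2 scale. *DDB2*, a subunit of the damage sensor of nucleotide excision repair, fell from 45.9, 49.0 and 48.0 TPM to 31.5, 32.0 and 33.8 TPM (-0.50, standard error 0.0840, adjusted p = 0.0138), and *TP53INP1* fell by 0.35. The 24 members tested had a median log2 fold change of 0.02, as had all genes. Of 15 BCL2-family genes tested 1 was called, the BH3-only gene *BIK*, from 8.59, 10.1 and 8.17 TPM to 12.9, 12.1 and 12.3 TPM (0.53, adjusted p = 0.0231). *MCL1*, an anti-apoptotic member, was at 189, 180.01 and 175 TPM and then 185, 182 and 180.5 TPM (0.07, adjusted p = 0.399).

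Stress-response lists held more of the genes that rose. Of 29 ATF4 and endoplasmic reticulum stress genes 4 rose and 0 fell by limma, with a median log2 fold change of 0.24. At an unadjusted p under 0.05, 17 were higher and 1 lower. *SLC7A5*, the large neutral amino acid transporter, was at 39.8, 39.3 and 27.2 TPM in control and 63.7, 60.3 and 52.2 TPM in KO libraries (0.80, standard error 0.123, adjusted p = 0.00950). The chaperone *HSPA5* (BiP), at 374, 361 and 341 TPM and then 406, 407 and 426 TPM, gave 0.26 (adjusted p = 0.0219), and *HERPUD1* (0.37) and *PDIA4* (0.34), which act in degradation and folding in the endoplasmic reticulum, rose too. The number called lay between 0 and 8 over the alternative settings and fits without a library.

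Of 19 NRF2 targets tested, 3 rose and 0 fell by limma (9 higher and 0 lower at an unadjusted p under 0.05), with a median of 0.27. The number called ranged from 0 to 5 over the alternatives, and was 0 without control replicate 1 or 3 or KO replicate 1 or 2. *NQO1*, a quinone reductase, was at 14.4, 15.02 and 12.3 TPM in control and 23.7, 23.8 and 19.3 TPM in KO libraries (log2 fold change 0.73, standard error 0.153, adjusted p = 0.0283). *HMOX1*, heme oxygenase 1, was at 30.7, 31.8 and 26.7 TPM and then 41.1, 41.7 and 31.6 TPM (0.41, adjusted p = 0.0206). On TPM as deposited, before the scaling used for the fold change, KO replicate 3 of *HMOX1* lay within the control range. *GCLM*, the regulatory subunit of glutathione synthesis, rose by 0.41, and *FTL*, ferritin light chain, was at 302, 346 and 369 TPM and then 454, 440.0 and 459 TPM (0.47, adjusted p = 0.0556).

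Immediate early and AP-1 genes were the list with the most calls, 7 up and 0 down of 30 by limma, with a median of 0.21. At an unadjusted p under 0.05, 15 were higher and 1 lower. *IER3* was at 194, 202 and 171 TPM in control and 285, 276 and 267 TPM in KO libraries (log2 fold change 0.61, adjusted p = 0.00779). *FOSL1*, an AP-1 subunit, was at 34.8, 34.3 and 22.7 TPM and then 59.0, 52.7 and 43.9 TPM (0.83, standard error 0.143, adjusted p = 0.0143). *MYC* was at 49.9, 48.1 and 49.4 TPM and then 63.1, 65.6 and 61.7 TPM (0.43, adjusted p = 0.0107), a smaller change with tight replicates, and *SPRY2*, a feedback inhibitor of receptor kinase signalling, rose by 0.36. The range over the alternatives was 0 to 11 members.

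Cytokines and matrix genes changed in both directions. Of 18 inflammatory cytokines tested 3 rose and 1 fell. *CSF1*, the macrophage growth factor, fell from 305, 282 and 353 TPM to 159.7, 155 and 197 TPM (log2 fold change -0.82, standard error 0.123, adjusted p = 0.00789, limma), whereas *IL1B* rose from 6.61, 6.34 and 6.86 TPM to 10.7, 11.7 and 11.1 TPM (0.81, adjusted p = 0.0400). *CXCL8*, a neutrophil chemokine, rose by 1.60 at low levels, from 0.863, 0.786 and 0.793 TPM to 2.35, 2.27 and 3.17 TPM. Of 40 matrix genes tested 3 rose, among them *MMP2* (0.43), a gelatinase, and 3 fell (12 higher and 7 lower at an unadjusted p under 0.05). *CA9* and *VEGFA* (-0.39), the angiogenic growth factor, fell in the hypoxia and glycolysis list of 30, where *ADM*, adrenomedullin, rose by 0.64.

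Glial and mesenchymal markers gave 2 calls downward of 13 tested, with 6 of the 13 positive and a median log2 fold change of -0.00079. *PDGFRA*, a receptor of glial progenitors and gliomas, fell from 168, 168 and 176 TPM to 125, 124 and 138 TPM (log2 fold change -0.35, adjusted p = 0.0243, limma), and *TNC*, tenascin C, fell by 0.26 on the log2 scale. The largest change of the list was upward and was not called: *FN1*, fibronectin, was at 2141, 1870.4 and 1358 TPM and then 2635, 2594 and 1982 TPM (0.50, adjusted p = 0.0524). These *FN1* values overlapped between the groups on TPM as deposited, before scaling. The summed TPM of the 18 markers was 13598 to 14060 in control and 13508 to 14398 in KO libraries. None of 4 neuronal, 11 epithelial and 5 blood-cell markers tested was called, with 2, 2 and 2 at an unadjusted p under 0.05. The blood-cell markers tested included the hemoglobin genes *HBB*, *HBA1* and *HBA2*, which are not leukocyte genes.

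Interferon-stimulated genes were lower on the whole without any member being called. Of 35 tested, 32 had a negative log2 fold change and the median was -0.38, against 0.02 over all genes. By limma, however, 0 passed and 7 had an unadjusted p under 0.05, all lower, where 18% of all genes had one in either direction. Their summed TPM was 1282, 1179 and 1632 in control and 689, 748 and 1078 in KO libraries, a non-overlapping order in which replicate 3 was the highest of both groups. *IFI6* was at 323, 272 and 482 TPM and then 101, 109 and 242 TPM (-1.27, standard error 0.471, adjusted p = 0.172). *PARP9* was at 50.1, 49.6 and 56.4 TPM and then 29.3, 29.8 and 36.2 TPM (-0.66, adjusted p = 0.0717).

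Cytosolic ribosomal protein genes leaned slightly upward, with 74 of 75 positive (72 on TPM as deposited, 62 with quantile normalization) and a median log2 fold change of 0.19 (0.13 and 0.08). Only *RPL26* was called, at 134, 138 and 144 TPM and then 158, 164 and 157 TPM (0.26, adjusted p = 0.0473, limma), a call held under 4 of the 15 alternatives and lost in each fit without a library. Their summed TPM overlapped between the groups (56243 to 71433 in control, 65244 to 78719 in KO). No gene of the lists of nonsense-mediated decay (19 genes), sterol synthesis (24) and mitochondrially encoded genes (13) was called by limma, with 2, 6 and 2 at an unadjusted p under 0.05, and of 16 MHC class I genes *ERAP2*, a peptide-trimming protease, fell by 0.37.

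**Figure D4:**
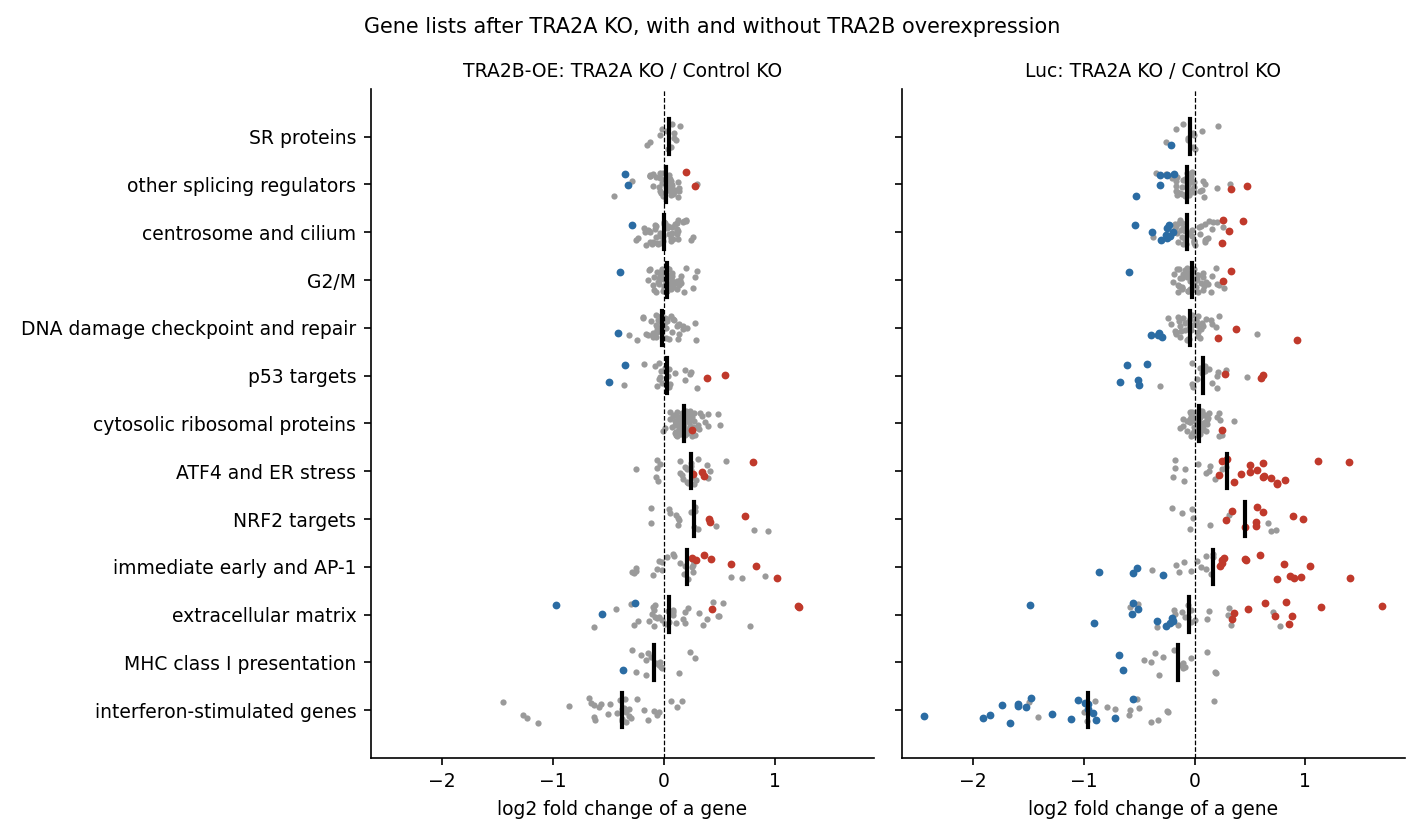
Log2 fold changes after *TRA2A* KO of the genes of 13 lists in TRA2B-OE cells (left) and Luc cells (right); each point is a gene, red and blue mark an adjusted p under 0.05 upward and downward, and black bars give list medians. Medians in TRA2B-OE run from -0.38 for interferon-stimulated genes to 0.27 for NRF2 targets, and in Luc from -0.96 to 0.45 for the same lists.

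The response was then set beside that of Luc cells, which shares no library with it. With *TRA2A* KO in Luc cells, limma called 2752 genes (14.3%), 1316 higher (6.82%) and 1436 lower (7.44%), and 5423 genes (28.1%) had an unadjusted p under 0.05. Of the 2752, 362 were DEGs (1.88%), 173 higher (0.896%) and 189 lower (0.979%). Of the 534 genes called in TRA2B-OE, 515 had the same sign in Luc and 426 were called there with the same sign, 79.8% of the TRA2B-OE list and 15.5% of the Luc list. Over all genes tested the same sign in both was seen for 68.8%. Of the 45 DEGs, 25 were also DEGs in Luc with the same sign (55.6%, and 6.91% of those in Luc) and 2 with the opposite sign.

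The size of the response depended on which list was taken. For genes called up in TRA2B-OE the median log2 fold change was 0.43 there and 0.42 in Luc, and for genes called down -0.44 and -0.50. For the DEGs of Luc cells, the medians were 1.33 in Luc and 0.57 in TRA2B-OE for those higher, and -1.31 and -0.61 for those lower. Each list was chosen on the values of one background, which favours larger values there. Of the 362 Luc DEGs, 321 had the same sign in TRA2B-OE and 75 were called.

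Side by side, *CA9* had a log2 fold change of -1.83 in TRA2B-OE and -2.90 in Luc, *A2M* -1.27 and -2.21, *CNR1* -1.02 and -1.65, *CPA4* 1.23 and 2.07, and *SLC7A5* 0.80 and 1.39. *TGFBI* (1.22 and 1.14), *ALDH3A1* (-1.04 and -1.11), *LUC7L2* (-0.33 and -0.31) and *MYC* (0.43 and 0.45) gave near-equal values. Others were larger in TRA2B-OE, among them *MAGI2* (-1.01 and -0.32), *APITD1-CORT* (1.45 and 0.87), *ANKRD1* (0.99 and 0.77) and *SERPINB5* (0.97 and 0.79). In all, 149 of the 285 genes called up and 157 of the 249 called down had the larger change in Luc. None of the genes named in this paragraph passed the test of the difference (limma), whose adjusted p was 0.289 or more for each of them. For the interferon-stimulated list, Luc cells gave 19 of 35 called lower and a median of -0.96, for ATF4 and endoplasmic reticulum stress 17 of 29 called higher and a median of 0.30, and for NRF2 targets 9 of 19 and 0.45. Over all 672 listed genes tested, the difference was called for 0 by limma and had an unadjusted p under 0.05 for 63.

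Tested directly over all genes, the response in TRA2B-OE minus that in Luc was called for 4 genes (0.0207%), all higher, of which 2 exceeded 1 on the log2 scale (0.0104%), and 1527 genes (7.91%) had an unadjusted p under 0.05. Without Luc Control KO replicate 2, limma called 0 genes for the difference (1605 at an unadjusted p under 0.05), and without Luc Control KO replicate 1 it called 1. *RNF43*, a ubiquitin ligase that removes Wnt receptors, was the only coding gene of the 4. In TRA2B-OE it was at 26.9, 26.6 and 27.5 TPM in control and 23.9, 22.2 and 22.6 TPM in KO libraries (log2 fold change -0.18, adjusted p = 0.263). In Luc it fell from 19.3 ± 1.32 to 8.81 ± 0.464 TPM (n = 3 each, -1.08, adjusted p = 1.96e-05), and the difference was 0.90 (standard error 0.115, adjusted p = 0.0190, limma). Next among coding genes by p, *ERCC6*, a transcription-coupled repair factor, gave 0.14 in TRA2B-OE and 0.79 in Luc, with a difference of -0.65 (adjusted p = 0.0640).

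**Figure D5:**
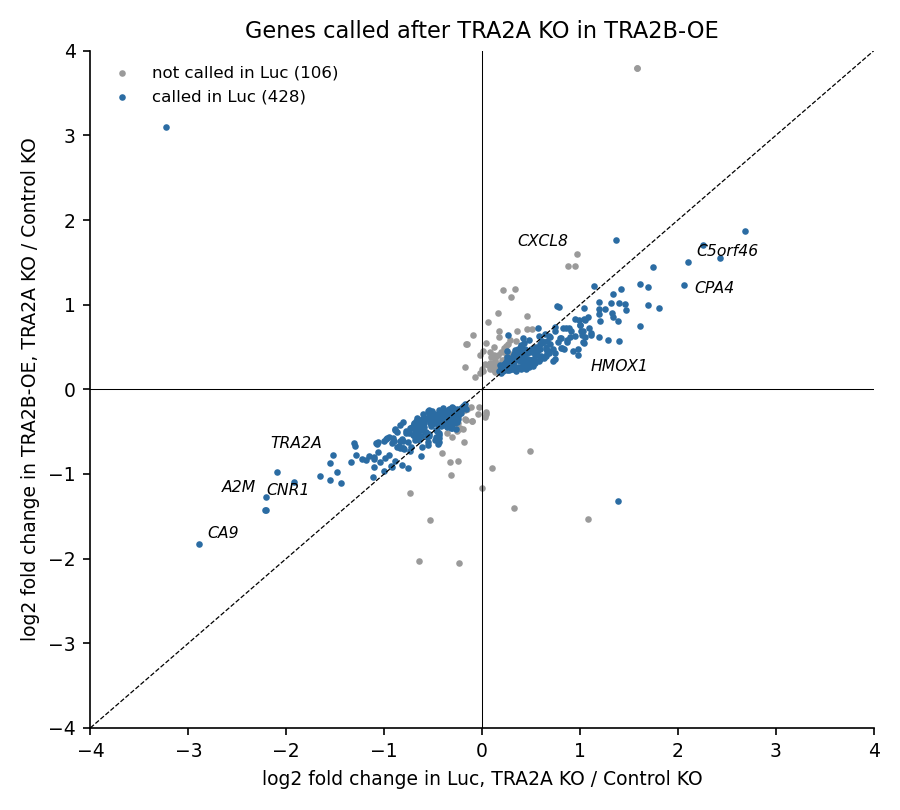
The 534 genes called after *TRA2A* KO in TRA2B-OE cells, with the log2 fold change in Luc on the x axis and in TRA2B-OE on the y axis; blue marks the 428 also called in Luc, grey the other 106, and the dashed line equal change (2 genes lie outside the axes). Nearly all points lie in the quadrants of equal sign, with genes on both sides of the dashed line: 149 of the 285 higher and 157 of the 249 lower genes changed more in their direction in Luc.

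*THUMPD3-AS1*, examined after its values were seen because the ROSA26 control guide lies in its exon 1, was at 31.6, 24.6 and 21.6 TPM and then 31.9, 37.2 and 25.2 TPM in TRA2B-OE (log2 fold change 0.33, adjusted p = 0.224, limma). The sources used here do not say which control guide the libraries received, and the part of the control guide in these values was not tested.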

How the data were processed

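Per the labels, mRNA was selected with poly-T beads and made into directional libraries. Transcripts of Gencode v34 (hg38) were quantified by the authors using kallisto 0.48.0, and the deposited table holds TPM per gene symbol, 1 column per library, on a linear scale and without scaling between libraries. STAR 2.7.3 is also named in the submitters' processing notes. Voom, which the authors used before limma, takes counts and was not applied.

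Groups came from the sample labels. The 15 LN319 libraries were scaled with an unweighted trimmed mean of M values (30% of ratios and 5% of abundances trimmed), put on the log2(TPM + 0.1) scale, which understates changes of low genes, and fitted together with limma 3.58.1 in R 4.3.3 with a mean-variance trend. P-values are two-sided and Benjamini-Hochberg adjusted over the 19303 genes, and DEGs follow the thresholds of the report. The steps were tested on simulated data with independent noise in each library, which cannot show the effect of a shift shared between libraries. Names were matched to Gencode v44 by symbol (33975 of 55906) or RefSeq synonym (1406); 28 rows have names in the form of a date and are not named. Figures were drawn with matplotlib 3.10.9.

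Named genes are the targeted paralogs and RT-PCR genes, the SR proteins, the 12 coding and 3 non-coding genes of largest change in each direction as described, members of smallest p in each list, and the genes of smallest p for the difference. Members and gene lists were chosen with earlier results of these data known. Replicate numbers were not used as pairs. Over all genes the deviations of same-numbered libraries hardly correlated (0.0229, -0.00286 and 0.0655), which does not exclude a shift shared by part of the genes. The summed TPM of the S-phase list, for example, was highest in replicate 3 of both TRA2B-OE groups (3126 in control, 3011 in KO) and of both Luc groups. Tables of the other cell lines were not used here. One control guide and the values at its site are not reported here.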

Additional observations from a re-analysis of the deposited data

Results flagged for a closer look

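In 4 genes the response to *TRA2A* KO differed between TRA2B-OE and Luc cells by limma's test of the difference across all genes. *RNF43* differed by 0.90 on the log2 scale, with values given above. *LINC01133*, a long non-coding RNA, differed by 0.60 (adjusted p = 0.0180): it was at 81.8, 86.4 and 81.4 TPM in TRA2B-OE Control KO and 82.1, 74.9 and 70.02 TPM in TRA2B-OE *TRA2A* KO, and in Luc it went from 82.3 ± 0.965 to 50.1 ± 2.84 TPM (n = 3 each). RP11-477H21.2, a clone name with no match in the annotation used, differed by 1.80 (adjusted p = 0.0190), with means of 5.24 and 5.80 TPM in TRA2B-OE and of 5.66 and 1.76 TPM in Luc. The last of the 4, another unmatched gene with an RP11 clone name, is listed at 0 in all 3 Luc *TRA2A* KO libraries, so that its difference of 6.32 (adjusted p = 0.00952) is set by the pseudocount. In TRA2B-OE it was at 0.0646, 0.0607 and 0.130 TPM in control and 2.14, 2.00 and 0.676 TPM in KO libraries.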

How the results depend on the processing

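TPM gives no depth, and with 3 libraries a group the test rests on the spread shared by all 15 libraries. Fitted on only the groups compared, limma left 0 calls, 0 DEGs and 0 DEGs for the difference (2778 and 1302 genes at an unadjusted p under 0.05); *TRA2A* was at -0.88 (adjusted p = 0.0605) and *TRA2B* at 0.40 (adjusted p = 0.162). With a pseudocount of 1 there were 26 DEGs, 183 in Luc and 1 for the difference, and with a minimum of 5 TPM 28, 162 and 0. Without a filter 288 genes were called, DEGs for the difference numbered 12 and the TRA2B log2 fold change was 0.40 (adjusted p = 0.0873). With quantile normalization *TRA2B* was at 0.28 (adjusted p = 0.165). With no minimum fold change the counts are 534, 2752 and 4. Removing trends with transcript length and GC content, an alternative chosen after seeing the data and possible for 81.7% of genes, left 0 DEGs for the difference (6 called, 1284 at an unadjusted p under 0.05) and 688 calls. The replicate number as a block gave 610 calls, of which 471 were shared, and 46 DEGs. For the difference it gave 0 (1799 at an unadjusted p under 0.05). No other fit used the replicate number.

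Leaving out each library gave 60 to 435 calls, 9 to 59 DEGs, 278 to 375 in Luc, 0 to 4 for the difference, -0.90 to -0.81 for *TRA2A* and 0.35 to 0.48 for *TRA2B*. Signs turned for genes that passed no test. On TPM as deposited the SRSF1 log2 fold change was -0.020 and the SRSF6 log2 fold change -0.030. With quantile normalization *SRSF1* was at -0.045, *SRSF2* at -0.0013, *SRSF6* at -0.0010, *SRSF10* at -0.0089, *MT-ND2* at -0.096 and the *TRA2B* difference at -0.0015. Leaving out each library gave -0.021 to 0.17 for the SRSF3 log2 fold change, -0.0058 to 0.078 for *SRSF6*, -0.078 to 0.024 for the SRSF7 log2 fold change and -0.031 to 0.17 for the SRSF9 log2 fold change. The causes were not tested.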
